A study of Mus musculus with 4 samples.

Results

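Gene expression at postnatal days 4 and 10 (P4 and P10) was compared within each of 5 broad cell classes of the mouse prefrontal cortex (PFC): excitatory neurons, inhibitory neurons, astrocytes, oligodendrocyte precursor cells (OPCs) and microglia. Cells were taken from the 2 libraries if UMIs and detected genes each numbered 1000 or more and mitochondrial transcripts made up no more than 15% of UMIs, and were placed in a class by their cluster, from marker genes led by Slc17a7 and Neurod6 for excitatory neurons, Gad1 and Gad2 for inhibitory neurons, Aqp4 and Gja1 for astrocytes, Pdgfra for OPCs and Csf1r for microglia. The 5 classes held 29947 cells of the 34286 that passed the filter at P4 and P10, and the whole series holds 59918 such cells. The tissue came from female C57BL/6J mice that differed in age alone as far as the methods say, with 2 mice per age in 1 library of the BD Rhapsody whole transcriptome assay, which tags the 3′ end of each captured mRNA with a cell barcode and a unique molecular identifier (UMI). The dissection solution of both ages contained Actinomycin D, a blocker of transcription, and the tissue was digested with protease XXIII and papain. Since each age is 1 library and cells were not assigned to mice, age and library cannot be told apart, no difference has a replicate check, no test between ages was made, and every interval below covers counting error only (95%, exact). Levels are in CPM, that is UMIs of a gene summed over the cells of a class and scaled to the total UMIs of that class, with mitochondrial and ribosomal protein genes left out of the total.

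The first postnatal weeks are the time when cortical neurons that have finished migrating grow axons and dendrites and form synapses. In the same period radial glia are replaced by astrocytes, which take up transmitter and potassium and join into a network through gap junctions. OPCs divide and spread through the cortex before some of them become myelin-forming oligodendrocytes, and microglia, which enter the brain from the yolk sac, pass from a growing, phagocytic state to a resting surveying state.

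The P4 library gave 12286 excitatory neurons, 2710 inhibitory neurons, 951 astrocytes, 695 OPCs and 84 microglia. The P10 library gave 7509 excitatory neurons, 1971 inhibitory neurons, 1988 astrocytes, 1045 OPCs and 708 microglia. Cells in clusters without a class numbered 2288 at P4 and 2051 at P10, and 357 cell barcodes occurred in both libraries. The median cell of a class held 5039 to 14776 UMIs at P4 and 4225 to 24083 at P10, and the microglia of P4, with 828669 UMIs in all against 2963452 at P10, were the smallest group behind any value. The markers that named the classes describe them and do not test their identity, since clusters were placed by these genes. The 8 excitatory markers summed to 2850 CPM in excitatory neurons at P4 and 3030 at P10, and the 10 microglial markers to 14500 CPM in microglia at P4 and 29800 at P10.

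Transcripts of genes that named the excitatory class were found in every other class. Slc17a7, the vesicular glutamate transporter of cortical excitatory neurons, stood at 218 CPM in excitatory neurons at P4 and 1190 CPM at P10. At P10 it stood at 163 CPM in inhibitory neurons, 167 CPM in astrocytes, 169 CPM in OPCs and 168 CPM in microglia, so that 4 unlike classes shared nearly the same level. Neurod6, a transcription factor of excitatory neurons, moved in the opposite direction, from 1500 CPM to 740 CPM in excitatory neurons, and went from 170 CPM to 99.7 CPM in astrocytes. These levels describe genes that placed the cells and test nothing. Changes are given both at any level and at a class's own level, which means that, at the age with more of the gene, the class held at least 25% of the level of the class with the most. The share of a class's UMIs that had the profile of the whole library, as free RNA would, was estimated from markers of the other 4 classes (the lowest of the 4 estimates) and was 4.03% to 6.55% in excitatory neurons and 10.4% to 24.3% in the other classes, highest in the microglia of P4. These cells stood apart in their markers too, with 1270 CPM summed over the 8 excitatory markers where inhibitory neurons, astrocytes and OPCs of P4 held 334 to 393 CPM and the microglia of P10 held 437 CPM. Of the 84 microglia at P4, Scrublet, which looks for barcodes that hold a pair of cells, marked 20 (23.8%), against 4.38% of those at P10.

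**Figure D1:**
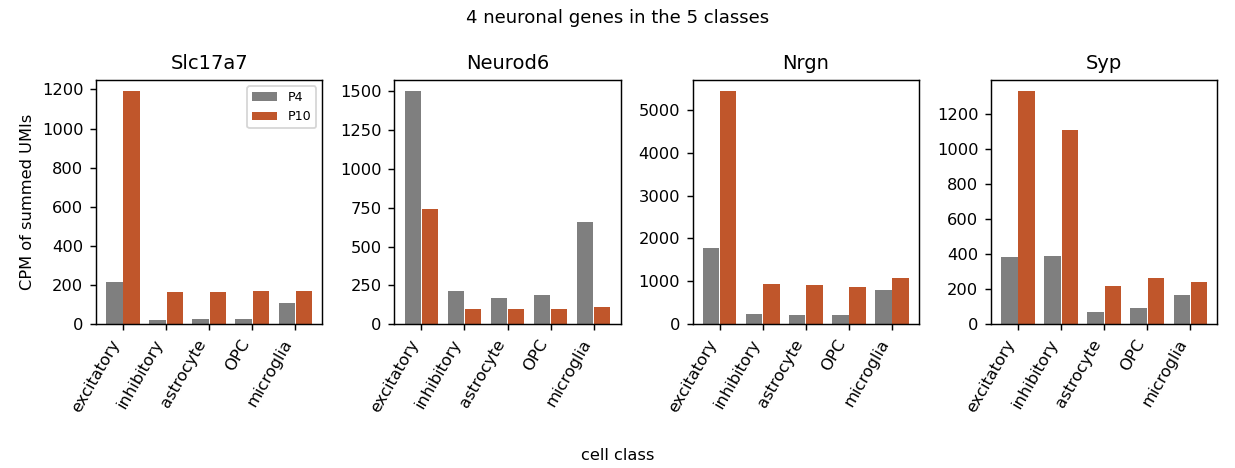
Level (CPM of summed UMIs, 1 library per age, no error bars) of 4 neuronal genes in the 5 cell classes at P4 (grey) and P10 (orange). Slc17a7 at P10 stands at 1190 CPM in excitatory neurons and at 163 to 169 CPM in the other classes, and Neurod6 at P4 is higher in microglia (656 CPM) than in inhibitory neurons, astrocytes or OPCs.

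Most genes differed little between P4 and P10. Of the 4176 to 4988 genes with a mean of at least 50 CPM over the 2 ages in a class, 65.2% (microglia) to 87.0% (OPCs) lay within 1.5-fold, and the median log2 ratio of P10 over P4 lay between -0.11 (astrocytes) and 0.00 (OPCs). Past 2-fold, 251 genes were higher and 152 lower at P10 in excitatory neurons, which is 6.01% and 3.64% of 4176 genes. In inhibitory neurons 217 were higher and 168 lower (4.98% and 3.86% of 4355). In astrocytes 210 were higher and 104 lower (4.81% and 2.38% of 4366), and in OPCs 111 were higher and 90 lower (2.23% and 1.8% of 4988). In microglia 217 were higher and 424 lower (4.75% and 9.28% of 4571). The astrocyte counts were 261 and 74 with the ratios centred on their median, but 336 and 403 under joint clustering of both libraries and 323 and 380 with clusters at the coarser resolution alone. Which class had the most lower genes also turned, since microglia had 85 under joint clustering, and with cells chosen by marker UMIs microglia had 101 and excitatory neurons 157.

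How many of these genes held up depended on the class. The comparison was repeated with 8 other choices of cells or RNA (9 for astrocytes and OPCs), among them other clusterings, cells chosen by marker UMIs, doublets left out and free RNA subtracted. In excitatory neurons 223 of the 251 higher and 135 of the 152 lower genes stayed past 2-fold in the same direction under every choice, and in inhibitory neurons 153 of 217 and 109 of 168 did. In astrocytes 124 of 210 higher genes and 32 of 104 lower genes did. In OPCs the numbers were 31 of 111 and 8 of 90, and in microglia 13 of 217 and 9 of 424. The 424 lower genes of microglia in particular became 189 without cells marked by Scrublet, 101 with cells chosen by marker UMIs and 85 under joint clustering of both libraries.

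**Figure D2:**
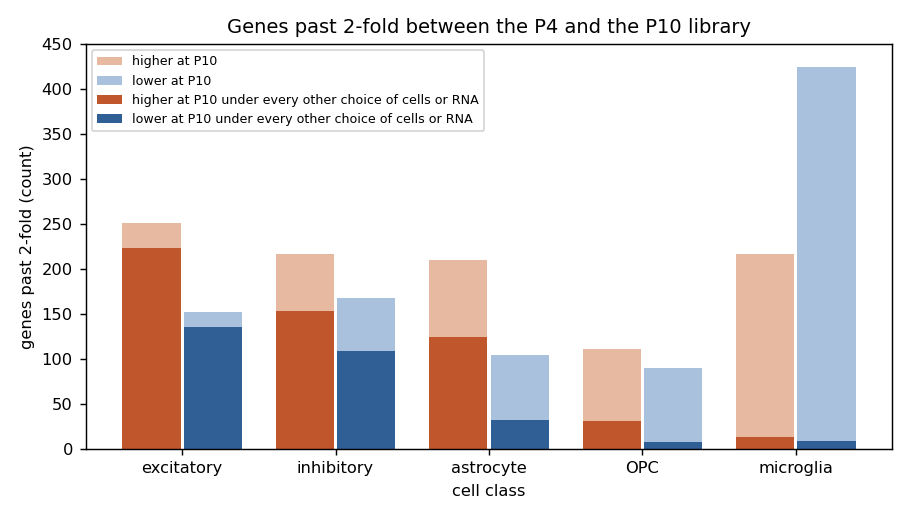
Number of genes past 2-fold between P4 and P10 (vertical axis) in each cell class (horizontal axis), higher (orange) and lower (blue) at P10. Pale bars are all such genes and dark bars those past 2-fold the same way under every other choice of cells or RNA, which are 223 and 135 in excitatory neurons but 13 and 9 in microglia.

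Few changes were shared by all classes. Among 2679 genes that passed the minimum in all 5, 3 were past 2-fold higher at P10 in each (Cck, Thy1 and Clu; 0.112%) and 3 lower in each (Cd24a, Jpt1 and Sox11; 0.112%). None of the 3 higher genes was at its own level in all 5 classes. Cck, a neuropeptide of cortical neurons, went from 155 CPM to 723 CPM in excitatory neurons, while astrocytes, OPCs and microglia held 150 CPM, 144 CPM and 175 CPM of it at P10. Of the 3 lower genes, Jpt1 and Sox11 met the own level in all 5 classes. In P4 microglia the excitatory marker Neurod6 met it as well, at 656 CPM beside 1500 CPM in excitatory neurons. Own level there thus does not separate RNA of microglia from RNA of neurons. With cells chosen by marker UMIs the microglial log2 ratios were -0.19 for Jpt1 and -2.65 for Sox11. With microglia set aside, 23 genes were higher and 7 lower at P10 in the other 4 classes, out of 2891. At the own level in all 4, 0 were higher and 6 were lower, among them Hmgn1, Hnrnpa1, Jpt1, Mex3a and Sox11. Under 5 of 12 alternatives 1 or 2 genes were higher there, such as Chn1 and Thy1 with the finer clusters alone, and the number of lower genes ran from 1 to 13. None of the 12 left out dividing cells alone. Cells with a UMI of Mki67 or Top2a, genes of dividing cells, were 39.1% of OPCs at P4 and 7.75% at P10. Over all classes, 704 genes were higher at P10 at own level in at least 1 class, 556 of them in 1, 124 in 2 and 24 in 3. Of 718 lower genes, 588 were lower in 1 class, 90 in 2, 30 in 3, 8 in 4 and 2 in 5. A gene counted in 1 class may be under the minimum or short of 2-fold in the others, so these are not genes particular to a class. In microglia 403 were lower at own level, and 9 of the 424 lower at any level held under every choice of cells or RNA.

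Sox11, a transcription factor of newborn neurons, was lower at P10 in every class. It went from 703 CPM (700 to 707) to 84.5 CPM (83.1 to 85.8) in excitatory neurons and from 819 CPM (808 to 831) to 106 CPM (103 to 109) in inhibitory neurons. In astrocytes it went from 313 CPM to 103 CPM, in OPCs from 379 CPM to 182 CPM and in microglia from 363 CPM to 34.4 CPM. The neuronal changes, 8.33-fold and 7.73-fold, were larger than that of OPCs, which was 2.08-fold (1.91 to 2.28) and stayed past 2-fold under 2 of 8 other choices of cells or RNA. The 8 choices, here and for the genes below, leave out the run without cells holding Mki67 or Top2a UMIs. In that run Sox11 was under 2-fold in OPCs, where it was past it under 4 of 11 alternatives in all. With each cell thinned to 2000 UMIs, Sox11 had a UMI in 70.8% of excitatory neurons at P4 and 15.8% at P10, and in 40.0% of OPCs at P4 and 28.0% at P10 (98.4%, 72.1%, 69.9% and 47.8% without thinning). In microglia the share was 27.7% at P4 and 5.19% at P10.

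Mex3a, an RNA-binding protein of progenitors, showed a similar order of classes. Its level went from 154 CPM to 15.5 CPM in excitatory neurons, from 160 CPM to 23.0 CPM in inhibitory neurons, from 89.1 CPM to 18.3 CPM in astrocytes and from 80.1 CPM to 38.3 CPM in OPCs. In excitatory neurons, inhibitory neurons and astrocytes it was past 2-fold under all 8 other choices, and in OPCs under 3 of 8.

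Hnrnpa1, Hmgn1 and Jpt1 were past 2-fold lower at P10 in neurons, astrocytes and OPCs, and differences between the classes were not tested. Hnrnpa1, a splicing factor, had log2 ratios of -1.29, -1.03, -1.31 and -1.03 in excitatory neurons, inhibitory neurons, astrocytes and OPCs. Hmgn1, which loosens chromatin by binding nucleosomes, had ratios of -1.39, -1.24, -1.13 and -1.02. In microglia these 2 genes stood at -0.46 (-0.61 to -0.31) and -0.11 (-0.31 to 0.09), within 1.5-fold. Jpt1, a small microtubule-linked protein, had ratios of -1.10, -1.10, -1.08 and -1.11, and of -1.33 in microglia. The OPC value was past 2-fold under 4 of 8 other choices for Hnrnpa1 and Jpt1 and under 2 for Hmgn1. The astrocyte value was past it under 6 of 8 for Hmgn1 and Jpt1, and the microglial value of Jpt1 under 4. Over these choices the log2 ratio of Jpt1 ran from -2.21 to -0.92 in astrocytes and from -1.50 to -0.58 in OPCs.

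**Figure D3:**
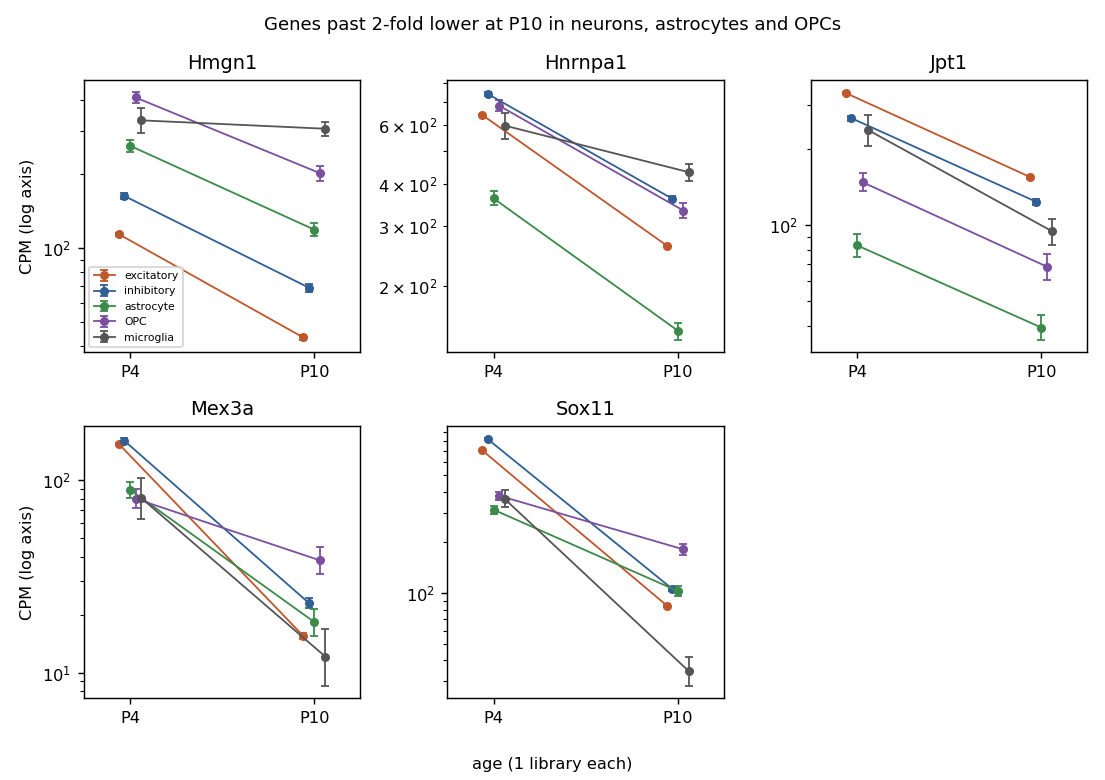
Level (CPM, log axis) at P4 and P10 of 5 of the 6 genes past 2-fold lower at P10 at own level in excitatory neurons (orange), inhibitory neurons (blue), astrocytes (green) and OPCs (purple), with microglia (grey) for comparison. Bars are exact 95% Poisson intervals of 1 library each, and among the lines of the neuron classes those of Sox11 and Mex3a are the steepest.

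The promoters of these genes are shown because all were past 2-fold lower at P10 in neurons, astrocytes and OPCs, though by unlike amounts. RefSeq promoters (GRCm38.p6, 250 bases before to 50 after the start of the gene) were found for 5 of them, and 3 follow, each read along the strand of its gene. Sox11 lies on chromosome 12 (minus strand, promoter at chr12:27342669-27342968), Hnrnpa1 on chromosome 15 (plus strand, chr15:103240147-103240446) and Jpt1 on chromosome 11 (minus strand, chr11:115514344-115514643). Capitals mark the letters CCAAT, or ATTGG on the other strand, the core of the element bound by the factor NF-Y.
Sox11 promoter: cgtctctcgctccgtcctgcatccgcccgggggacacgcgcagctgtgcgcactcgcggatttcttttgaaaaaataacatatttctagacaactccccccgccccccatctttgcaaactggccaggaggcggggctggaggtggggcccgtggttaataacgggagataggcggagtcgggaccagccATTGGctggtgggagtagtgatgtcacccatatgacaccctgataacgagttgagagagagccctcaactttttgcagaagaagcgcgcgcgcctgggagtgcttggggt
Hnrnpa1 promoter: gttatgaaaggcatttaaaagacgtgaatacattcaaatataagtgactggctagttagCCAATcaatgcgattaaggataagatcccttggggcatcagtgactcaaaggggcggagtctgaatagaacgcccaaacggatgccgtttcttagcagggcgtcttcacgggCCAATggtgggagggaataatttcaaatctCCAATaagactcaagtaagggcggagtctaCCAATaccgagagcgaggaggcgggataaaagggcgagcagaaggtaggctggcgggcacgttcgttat
Jpt1 promoter: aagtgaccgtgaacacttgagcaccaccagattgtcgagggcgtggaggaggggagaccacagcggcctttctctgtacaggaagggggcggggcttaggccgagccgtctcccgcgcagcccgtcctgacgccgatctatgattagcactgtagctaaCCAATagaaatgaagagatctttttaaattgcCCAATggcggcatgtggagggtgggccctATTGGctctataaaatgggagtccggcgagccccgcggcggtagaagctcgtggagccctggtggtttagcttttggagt
These letters occurred in the promoters of all 5 genes, where 37.4% of 32851 promoters of that length held them. Among genes changed at own level in both neuron classes, they occurred in 41.2% of 51 promoters of genes lower at P10 and in 31.7% of 82 promoters of genes higher at P10. The letters were chosen after the sequences had been seen, and a match describes the sequence and is not a measured site.

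Excitatory and inhibitory neurons shared many of their changes. Among 3872 genes that passed the minimum in both, 122 were higher and 74 lower at P10 in both, 107 and 71 of them at own level. Of the 185 genes higher at P10 at own level in excitatory neurons and measured in inhibitory neurons, 61.6% were past 2-fold there too, and of the 158 genes higher in inhibitory neurons 68.4% were past it in excitatory neurons, where 4.98% and 6.01% of all genes were higher in inhibitory and excitatory neurons. For genes lower at P10 the shares were 54.8% of 135 and 58.2% of 122, beside 3.86% and 3.64% of all genes. The opposite direction past 2-fold occurred for 2 of the 135 lower genes and for none of the 185 higher ones. The classes come from the same 2 libraries, so an effect of the library would be shared as well.

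Slc24a2, Vgf, Thy1 and Tuba4a were past 4-fold higher at P10 in both neuron classes. Slc24a2, a calcium exchanger driven by sodium and potassium, had log2 ratios of 2.30 and 2.73, and Vgf, a secreted neuropeptide precursor, of 2.08 and 2.63. Thy1, a surface protein of mature neurons, had ratios of 2.62 and 2.33. The alpha tubulin Tuba4a had ratios of 2.41 and 4.02.

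Genes lower at P10 in both neuron classes were led by Mex3a and Sox11. Dcx, a microtubule-binding protein of migrating neurons, went from 1720 CPM to 436 CPM in excitatory neurons and from 2620 CPM to 670 CPM in inhibitory neurons. St8sia2, which attaches polysialic acid to the adhesion molecule NCAM, had log2 ratios of -2.20 and -1.90. Lmnb1, a lamin of the nuclear envelope, had ratios of -2.19 and -2.04, Sox4 of -2.21 and -1.69, and Cd24a, a surface protein of immature neurons, of -1.53 and -1.94.

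In excitatory neurons the largest ratios of P10 over P4 at own level were those of Cacng3, Egr1, Klf9, Cx3cl1 and Pcp4, where the largest and lowest ratios of a class are, here and below, those among genes with a mean of at least 100 CPM other than the markers that named it. Cacng3, an auxiliary subunit of AMPA receptors, lies on chromosome 7 (GRCm38 chr7:122670492-122769393, plus strand) and went from 19.4 CPM (18.8 to 20.1) to 181 CPM (179 to 183), 9.33-fold (9.01 to 9.66). In inhibitory neurons Cacng3 stood at 149 CPM and 146 CPM. Egr1, an immediate early transcription factor induced by neuronal activity, went from 26.8 CPM to 242 CPM, 9.06-fold (8.79 to 9.33). Cx3cl1, the neuronal chemokine whose receptor is on microglia, went from 46.7 CPM to 310 CPM. Pcp4, a calmodulin-binding protein of deep-layer neurons, went from 29.1 CPM to 183 CPM.

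The same direction was seen in parts of the class. In clusters with markers of layer 6 corticothalamic neurons (L6 CT-like) alone, the log2 ratios were 2.72 for Cacng3, 1.85 for Egr1, 2.32 for Klf9, 2.48 for Cx3cl1 and 3.85 for Pcp4. Of the 235 genes higher at own level in excitatory neurons, 228 had the same sign in all 4 groups of excitatory clusters (L6 CT-like, L5 PT-like, L5 NP-like and the rest), and 98 were past 2-fold in each. Of the 150 lower genes, 149 had the same sign in all 4 and 53 were past 2-fold in each. The genes were called on the sum of these same groups, so agreement in sign was favoured by the choice of genes and tests nothing.

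Among genes with a mean of at least 100 CPM, the lowest ratios of excitatory neurons were those of Sox11, Ppp1r14b, Trim67, Ttc28 and Sox4. Ppp1r14b, an inhibitor of protein phosphatase 1, went from 176 CPM to 24.8 CPM, 7.09-fold lower at P10 (6.88 to 7.32). Trim67, a ubiquitin ligase with a role in axon guidance, went from 201 CPM to 29.7 CPM. Ttc28 went from 249 CPM to 40.1 CPM, and Sox4, a close relative of Sox11, from 614 CPM to 132 CPM. All 10 of these genes were past 2-fold in the same direction under all 11 alternatives of cells, RNA, scaling and part of the class.

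Of excitatory neurons 18 genes were past 2-fold at own level while every other class that passed the minimum stayed within 1.5-fold, 8 of them higher and 10 lower at P10. The largest were Dgkb, a diacylglycerol kinase, from 20.5 CPM to 94.7 CPM, Tmem178, from 27.6 CPM to 86.8 CPM, and Znrf2, a ubiquitin ligase, from 154 CPM to 51.6 CPM. The count takes no account of classes under the minimum of 50 CPM, and Dgkb went from 16.0 CPM to 71.4 CPM in inhibitory neurons, a log2 ratio of 2.15 (2.01 to 2.31) that was left out for its mean alone. The difference between classes was not tested for these genes, nor for those of other classes below.

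In inhibitory neurons the largest ratios at own level included those of Lpl, Slc24a2, Vgf and Thy1. Lpl, lipoprotein lipase, went from 32.1 CPM (30.0 to 34.4) to 253 CPM (248 to 258), 7.88-fold (7.34 to 8.46). The difference was uneven within the class, with a log2 ratio of 3.16 in Pvalb lineage-like clusters, 0.93 in Sst-like clusters, 0.25 in Lamp5-like and -0.96 in Vip-like clusters. The largest UMI count of Lpl in a cell was 99 at P10 and 17 at P4. Thy1, by contrast, was past 2-fold higher in all 4 groups of inhibitory clusters, with log2 ratios of 3.68 (Pvalb lineage), 2.38 (Sst-like), 2.23 (Lamp5-like) and 1.19 (Vip-like).

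The levels of Gad1 and Gad2, which named the class, are a description. Gad1, an enzyme of GABA synthesis, went from 705 CPM to 1410 CPM in inhibitory neurons, and Gad2, the form found at synaptic vesicles, from 341 CPM to 1260 CPM. Among genes with a mean of at least 100 CPM, the lowest ratios were those of Sox11, Dact1, Ttc28, Dcx and Cd24a. Dact1, a modulator of Wnt signalling, went from 327 CPM (320 to 334) to 59.3 CPM (56.9 to 61.7). Of the 198 genes higher at own level, 185 had the same sign in Sst-like, Pvalb lineage, Vip-like and Lamp5-like clusters and 82 were past 2-fold in each. Of the 160 lower genes 153 and 47 did. Here too the genes were called on the sum of these clusters, so the agreement tests nothing. In the order above the 4 groups held 712, 1114, 341 and 543 cells at P4 and 452, 800, 496 and 223 at P10. A ratio of the whole class thus also holds this change of mixture, whose part in it was not tested.

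Past 2-fold in inhibitory neurons with every other measured class within 1.5-fold were 22 genes, 6 higher and 16 lower at P10. Nek7, a kinase, went from 37.7 CPM to 151 CPM, and Cplx1, complexin 1, which clamps and times vesicle fusion, from 154 CPM (149 to 159) to 564 CPM (556 to 571). In excitatory neurons Cplx1 stood at 142 CPM and 161 CPM. Msi1, an RNA-binding protein of progenitors, went from 114 CPM to 39.3 CPM. In excitatory neurons Msi1 went from 52.5 CPM to 14.0 CPM, a log2 ratio of -1.90 (-1.96 to -1.84) with a mean under the minimum. The count was 9 with Sst-like clusters alone and 12 under joint clustering.

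In astrocytes the largest ratio of P10 over P4 was that of Fam107a, an actin-linked protein that responds to glucocorticoids. The gene lies on chromosome 14 (GRCm38 chr14:8296274-8318023, minus strand) and went from 38 UMIs, 8.28 CPM (5.86 to 11.4), to 3513 UMIs, 432 CPM (418 to 447), 52.2-fold (38 to 73.9). With cells thinned to 2000 UMIs, 1.49% of astrocytes had a UMI of it at P4 and 45.0% at P10 (3.26% and 64.6% without thinning), beside 0.145% and 0.683% of OPCs, whose median depth was close to that of astrocytes. Slc39a12, a zinc transporter, went from 49.0 CPM to 515 CPM, and F3, tissue factor, from 83.0 CPM to 584 CPM. Syne1 went from 67.6 CPM to 438 CPM and Eps8, which caps actin filaments, from 28.6 CPM to 181 CPM. All 5 genes were past 2-fold under all 11 alternatives.

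The lowest ratios of astrocytes included genes of radial glia and of the matrix. Nes, the intermediate filament nestin, went from 232 CPM (219 to 247) to 21.9 CPM (18.8 to 25.4), 10.6-fold lower at P10. Tnc, the matrix protein tenascin C, went from 1960 CPM to 295 CPM, and Sfrp1, a secreted Wnt inhibitor, from 203 CPM to 38.3 CPM. Nid1, a basement membrane protein, went from 345 CPM to 69.4 CPM and Rlbp1, a retinoid-binding protein, from 348 CPM to 80.8 CPM. Of the list of radial glia and immature astroglia, 6 of 19 measured genes were lower at P10 and 1 higher, beside 2.38% and 4.81% of all genes, with a median log2 ratio of -0.26 beside -0.11 for all genes. The median was 0.40 under joint clustering and 0.41 with the coarser clusters alone. Fabp7, the fatty acid-binding protein of radial glia, went from 15200 CPM to 4190 CPM, Vim, vimentin, from 485 CPM to 172 CPM and Ccnd2, cyclin D2, from 1380 CPM to 434 CPM. Hopx, at 79.1 CPM and 180 CPM, was the member that was higher, and Sox9 and Ptn stayed near their P4 level with log2 ratios of 0.16 and -0.09.

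Of the 22 genes of the list of astrocyte maturation, 8 were past 2-fold higher at P10 and 0 lower, with a median log2 ratio of 0.73, where 4.81% of all genes were past 2-fold higher and the median was -0.11. Slc1a2, the main glutamate transporter of the forebrain, went from 3720 CPM to 11600 CPM, whereas Slc1a3, the transporter that radial glia already carry, stood at 9670 CPM and 9590 CPM. Glul, glutamine synthetase, went from 4080 CPM to 9170 CPM, Htra1, a secreted protease, from 360 CPM to 1580 CPM and Gpr37l1, an orphan receptor, from 289 CPM to 1480 CPM. Of this list 9 of 13 genes were also higher in microglia, 5 of 8 in inhibitory neurons, 3 of 7 in excitatory neurons and 3 of 18 in OPCs. Of all genes 4.75%, 4.98%, 6.01% and 2.23% were higher there. At own level 2 were higher in microglia, 1 in OPCs and 0 in neurons. The 9 naming markers of astrocytes summed to 43.4 CPM in microglia at P4 and 366 CPM at P10. The share of astrocytes with a UMI of Mki67 or Top2a, genes of dividing cells, was 13.4% at P4 and 2.36% at P10, and without those cells 205 genes were higher and 95 lower.

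Of the astrocytes 29 genes were past 2-fold with every other measured class within 1.5-fold, 15 higher and 14 lower at P10, and 198 were under joint clustering. Msmo1, an enzyme of cholesterol synthesis, went from 543 CPM (521 to 564) to 1550 CPM (1520 to 1580), and in the list of cholesterol synthesis 2 of 18 genes were past 2-fold higher in astrocytes, beside 4.81% of all genes, with a median of 0.44 where that of all genes was -0.11. In excitatory neurons 2 of 16 were past 2-fold lower, beside 3.64% of all genes, with a median of -0.23. In microglia 5 of 14 were lower, beside 9.28% of all genes, with a median of -0.80 that was 0.16 with cells chosen by marker UMIs. Elovl5 and Hacd2, which lengthen fatty acids, went from 534 CPM to 1160 CPM and from 203 CPM to 564 CPM. Gabra2 (25.9 CPM to 79.2 CPM) and Ank2 (163 CPM to 466 CPM) were the other 2 of the 3 largest, and both went under 2-fold when both libraries were clustered together, with log2 ratios of 0.79 and 0.96.

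Klf9, a transcription factor induced by thyroid hormone and glucocorticoids, was higher at P10 in neurons, astrocytes and OPCs. It went from 29.1 CPM (28.3 to 29.9) to 197 CPM (195 to 199) in excitatory neurons and from 100 CPM to 379 CPM in astrocytes. In inhibitory neurons it went from 10.6 CPM to 75.1 CPM, with a mean under the minimum of 50 CPM, and in OPCs from 25.9 CPM to 74.3 CPM. In these 2 classes it was below the own level. In all 8 groups of neuronal clusters its log2 ratio lay between 2.32 and 3.59. Among genes listed as responding to thyroid hormone, 7 of 9 measured in astrocytes were past 2-fold higher at P10, 5 of them at own level, with a median log2 ratio of 1.92, where 4.81% of all genes were higher and their median was -0.11. The list holds Gjb6, a marker that named astrocytes and so tests nothing there. Nrgn went from 224 CPM to 913 CPM in astrocytes, below their own level. The higher genes included Dio2, the enzyme that makes active thyroid hormone (410 CPM to 1470 CPM), and Slco1c1, a thyroxine transporter (185 CPM to 1160 CPM). Dbp, a clock-controlled factor, was also among them (22.5 CPM to 93.7 CPM). The receptor Thra had log2 ratios of -0.23 in astrocytes and -0.16 in excitatory neurons. In excitatory neurons 3 of 5 were higher, beside 6.01% of all genes, namely Klf9, Nrgn, a calmodulin-binding protein of dendrites (1780 CPM to 5430 CPM), and Camk4, a nuclear calcium-dependent kinase (296 CPM to 662 CPM). In OPCs 3 of 5 and in inhibitory neurons 1 of 4 were higher, beside 2.23% and 4.98% of all genes, with 0 of them at own level. In microglia 0 of 3 were higher and 1 was lower, beside 4.75% and 9.28% of all genes.

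In OPCs the lowest ratios depended on where dividing cells were placed. Ube2c, Prc1, Ccna2, Tpx2 and Pclaf, all genes of the cell cycle, stood at 218 to 263 CPM at P4 and 3.07 to 7.57 CPM at P10, and all 16 measured genes of the list of cell division were past 2-fold lower, beside 1.8% of all genes, with a median log2 ratio of -4.97. A UMI of Mki67 or Top2a was found in 39.1% of OPCs at P4 and 7.75% at P10. At P10, part of the dividing cells with OPC markers lay in a cluster of 364 cells that received no class at the coarser resolution. With the finer clusters alone there were 1206 OPCs at P10 in place of 1045, and 34 genes were lower in place of 90. Prc1 and Pclaf then had log2 ratios of -0.84 and -1.25 in place of -6.15 and -4.93. Without cells holding Mki67 or Top2a UMIs 36 genes were lower. The size of the difference in division is therefore not given by these classes.

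That 5 other genes were past 2-fold higher did not depend on this, though the sizes of their ratios did in part. Without cells holding Mki67 or Top2a UMIs the log2 ratio of Ptprn was 1.947 in place of 2.321. With the finer clusters alone those of S100a13, Arsb and Epas1 were 1.709, 1.548 and 1.378 in place of 1.901, 1.765 and 1.581. Ptprn, a membrane protein of secretory granules, went from 77.2 CPM (68.5 to 86.6) to 386 CPM (367 to 405), 5.0-fold (4.41 to 5.68). S100a13 went from 131 CPM to 490 CPM, Arsb, a lysosomal sulfatase, from 134 CPM to 455 CPM, Shisa9, an AMPA receptor partner, from 52.9 CPM to 179 CPM, and Epas1, a hypoxia-inducible factor, from 95.3 CPM to 285 CPM. These 5 were past 2-fold under all 11 alternatives, while 84 of the 111 higher genes were with the finer clusters alone and 84 without cells holding Mki67 or Top2a UMIs. Gpr17, a receptor of OPCs that have begun to differentiate, went from 705 CPM to 1580 CPM, and 1 of 10 measured genes of the oligodendrocyte lineage list was past 2-fold higher, beside 2.23% of all genes, with a median log2 ratio of 0.37 where that of all genes was 0.00. Nes and Vim were among the 8 lower genes that held under every choice of cells or RNA.

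Of OPCs 7 genes were past 2-fold with all other measured classes within 1.5-fold. Tnr, tenascin R, a matrix protein of perineuronal nets, went from 1100 CPM to 2310 CPM, Lhfpl2 from 57.4 CPM to 133 CPM and Slc38a1, a glutamine transporter, from 217 CPM to 95.8 CPM. Selenoh went from 112 CPM to 42.3 CPM, and its log2 ratio went from -1.41 to -0.51 without cells holding Mki67 or Top2a UMIs. The number of such genes was 2 with the finer clusters alone.

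In microglia, 9 of 15 measured genes of the surveying state (the list of homeostatic microglia) were past 2-fold higher at P10 and 0 lower, where 4.75% of all genes were higher. All 15 had positive log2 ratios, with a median of 1.08 beside -0.04 for all genes, and the median was 0.45 with cells chosen by marker UMIs and 0.42 under joint clustering. Between the same cells of P4 and P10 the 10 naming markers of microglia went from 14500 CPM to 29800 CPM, the 8 excitatory markers from 1270 CPM to 437 CPM and the share with the profile of the library from 24.3% to 13.4%. With free RNA subtracted the median of the list was 0.95. Selplg, a selectin ligand that marks resting microglia, lies on chromosome 5 (GRCm38 chr5:113818536-113832644, minus strand) and went from 85 UMIs, 103 CPM (81.9 to 127), to 2181 UMIs, 736 CPM (705 to 768), 7.17-fold (5.78 to 9.02). In thinned cells 24.1% of microglia had a UMI of it at P4 and 66.9% at P10 (56.0% and 87.0% without thinning), against 0.195% of OPCs at P10, whose median depth of 4327 UMIs was near the 4519 of microglia. Olfml3 went from 614 CPM to 1710 CPM, Siglech, a sialic acid-binding receptor, from 537 CPM to 1470 CPM and Cst3, cystatin C, from 3210 CPM to 8100 CPM. Fcgr2b, an inhibitory antibody receptor, went from 29.0 CPM (18.6 to 43.1) to 196 CPM (181 to 213), and Sparc, a secreted matrix protein, from 1600 CPM to 5520 CPM. With cells chosen by marker UMIs the log2 ratio of Sparc was 0.88 in place of 1.78. Lgals9 and Alox5ap had log2 ratios of 1.83 and 1.82.

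Of the 20 listed genes of phagocytic microglia of the first postnatal week, 13 passed the minimum, and of these 3 were past 2-fold lower at P10 and 0 higher, with a median log2 ratio of -0.25, where 9.28% of all genes were lower and 9 of the 424 lower genes held under every choice of cells or RNA. The 3 were Fabp5, a fatty acid-binding protein (510 CPM to 154 CPM), Ccl3, a chemokine (119 CPM to 52.0 CPM), and Lpl (404 CPM to 189 CPM). Cd68 and Ctsd, proteins of lysosomes, had log2 ratios of 0.64 and 0.70. Under the minimum, Spp1, osteopontin, went from 60.3 CPM to 12.5 CPM, a log2 ratio of -2.27 (-2.93 to -1.63), and Lgals3, galectin 3, had 9 UMIs at P4 and 6 at P10. Itgax, an integrin subunit, had 8 UMIs at P4 and 3 at P10. Other members under the minimum did not all go this way. Ccl4, a chemokine, went from 12.1 CPM to 20.9 CPM, a log2 ratio of 0.79 (-0.18 to 1.92). Lgals1 had a ratio of -0.165 (-0.89 to 0.617), and Gpnmb had 2 UMIs at each age. None of the 18 measured genes of cell division was past 2-fold in microglia, where 4.75% of all genes were higher and 9.28% lower. Their median log2 ratio was -0.12. A UMI of Mki67 or Top2a was found in 47.6% of microglia at P4 and 26.6% at P10, at median depths of 8897 and 4519 UMIs.

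The lowest ratios of microglia were mostly those of genes known from neurons. H19, an imprinted RNA of fetal tissue, had 311 UMIs at P4, of which 308 were in 1 cell, and 3 UMIs at P10. St8sia2 went from 261 CPM to 21.6 CPM, Sox11 from 363 CPM to 34.4 CPM, Dcx from 889 CPM to 84.7 CPM and Cd24a from 845 CPM to 93.8 CPM. In microglia of P4 these neuronal genes stood beside 656 CPM of Neurod6. With free RNA of the profile of the library subtracted, the log2 ratios were -4.76 for St8sia2, -3.38 for Sox11, -4.50 for Dcx and -4.23 for Cd24a, where they were -3.59, -3.40, -3.39 and -3.17 without. With cells chosen by marker UMIs, the log2 ratios were -0.77 for St8sia2, -2.65 for Sox11, -1.72 for Dcx and -0.92 for Cd24a. The 206 genes past 2-fold in microglia with every other measured class within 1.5-fold, 20 higher and 186 lower, went to 41 without cells marked by Scrublet, to 16 with cells chosen by marker UMIs and to 3 under joint clustering. The 3 largest of them, Ina, Dnm3 and Ppp1r14c, had log2 ratios of -2.05, -2.0 and -2.0, of -0.36, 0.17 and -0.01 with cells chosen by marker UMIs, and of -3.53, -3.71 and -3.24 with free RNA subtracted.

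**Figure D4:**
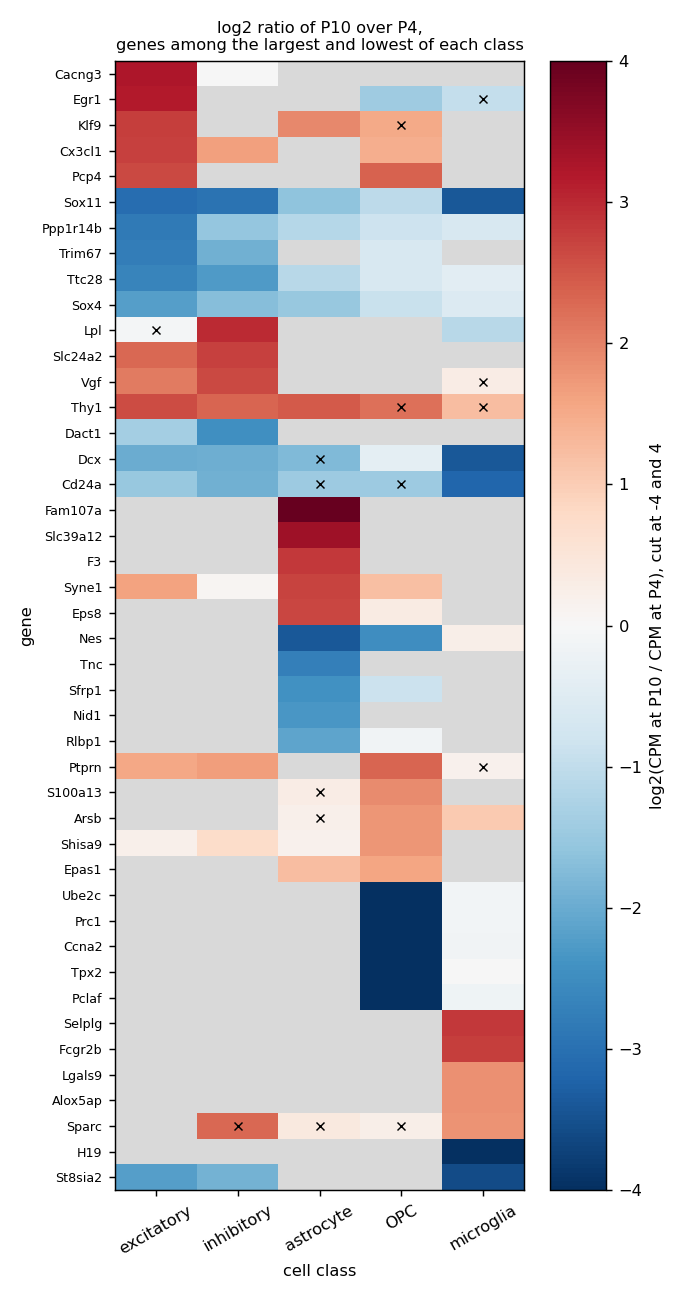
log2 ratio of P10 over P4 (color, limited to -4 and 4) in the 5 classes (columns) for genes among the largest and lowest ratios of each class (rows). Grey fields are below the minimum of 50 CPM and crosses mark levels under 25% of the class with the most; for example Selplg is grey outside microglia, while Sox11 is lower in every column.

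Gene lists by function set the classes side by side. Of the synaptic vesicle genes, 9 of 19 were past 2-fold higher at P10 with a median log2 ratio of 0.92 in excitatory neurons and 10 of 19 and a median of 1.01 in inhibitory neurons, and 0 lower in either, where 6.01% and 4.98% of all genes were higher. Syp, synaptophysin, went from 386 CPM to 1330 CPM in excitatory neurons and from 390 CPM to 1110 CPM in inhibitory neurons. Astrocytes had a median of 0.98 on the same list, but only 1 of 18 genes was there at its own level, and the median was -0.39 with free RNA subtracted. Lists of glutamate receptors and the postsynaptic density, of GABA-A receptors and chloride transport, and of voltage-gated channels had medians of 0.42, 0.51 and 0.66 in excitatory neurons and 0.18, 0.50 and 0.37 in inhibitory neurons.

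Some forms of one receptor or channel that are known from early and mature neurons follow, chosen in part after their values were seen. In excitatory neurons Grin2a, the NMDA receptor subunit of mature synapses, went from 32.0 CPM to 120 CPM, while Grin2b, the early subunit, stood at 678 CPM and 673 CPM. Slc12a5, the transporter that exports chloride from neurons, went from 81.7 CPM to 217 CPM, and Slc12a2, which imports it, from 62.3 CPM to 44.5 CPM, below the own level of the class. Scn3a, a sodium channel of the immature brain, had a log2 ratio of -0.36 where Scn8a, that of mature axons, had 0.92.

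Of the genes of neuronal growth and the cytoskeleton, 8 of 24 were past 2-fold lower at P10 in excitatory neurons (median -0.78) and 7 of 24 in inhibitory neurons (median -0.53), and 0 higher, where 3.64% and 3.86% of all genes were lower. Astrocytes had 7 of 24 lower (4 of 8 at own level), OPCs 3 of 24 and microglia 18 of 24. Their medians were -0.597, -0.415 and -1.714, and 2.38%, 1.8% and 9.28% of all genes were lower there. In P4 microglia the excitatory marker Neurod6 stood at 656 CPM, and whether this RNA was that of neurons was not tested. Tubb2b, a tubulin of growing neurites, went from 4710 CPM to 1780 CPM in excitatory neurons, while Gap43, a protein of growth cones, stood at 6230 CPM and 5630 CPM. Chromatin and HMG proteins had medians of -0.69 in excitatory neurons, -0.77 in inhibitory neurons, -0.87 in astrocytes and -0.90 in OPCs. In these classes 4, 5, 8 and 9 genes were past 2-fold lower and 0 higher, beside 3.64%, 3.86%, 2.38% and 1.8% of all genes lower. In microglia the median was -0.14 and 1 of 18 was lower, beside 9.28% of all genes. In OPCs the markers of dividing cells went from 2150 CPM to 83.2 CPM, and the median of this list was -0.62 with the finer clusters alone. Ptma, prothymosin alpha, had log2 ratios of -1.19 in excitatory neurons, -1.01 in astrocytes and -0.97 in OPCs, and H3f3a, the histone variant H3.3, of -1.36, -1.09 and -0.69. RNA binding and splicing genes had medians of -0.57, -0.66, -0.47 and -0.22 in the same 4 classes and -0.82 in microglia, where it was 0.002 with cells chosen by marker UMIs.

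Energy metabolism genes had positive medians in neurons, with 6 of 23 past 2-fold higher at P10 in each neuron class and medians of 0.56 and 0.78, where 6.01% and 4.98% of all genes were higher, beside medians of 0.13 in astrocytes, 0.09 in OPCs and -0.22 in microglia. Aldoa, a glycolytic aldolase, went from 355 CPM to 972 CPM in excitatory neurons and from 398 CPM to 1110 CPM in inhibitory neurons, and Mdh1, cytosolic malate dehydrogenase, from 435 CPM to 905 CPM and from 390 CPM to 1160 CPM. Genes of the immediate early and dissociation response had medians of 0.22 in excitatory neurons, 0.24 in inhibitory neurons, 0.06 in astrocytes, -0.01 in OPCs and -0.29 in microglia. In excitatory neurons 1 of 4 was higher, Egr1, and in astrocytes 1 of 5, beside 6.01% and 4.81% of all genes. In OPCs 1 of 6 was lower, again Egr1, beside 1.8% of all genes. Inhibitory neurons (0 of 4) and microglia (0 of 6) had none past 2-fold, beside 4.98% and 4.75% of all genes higher and 3.86% and 9.28% lower. The imprinted growth genes had 1 of 7 higher in excitatory neurons, 1 of 6 higher in inhibitory neurons, and 1 of 7, 1 of 6 and 2 of 5 lower in astrocytes, OPCs and microglia, beside 6.01% and 4.98% of all genes higher and 2.38%, 1.8% and 9.28% lower, with medians between -0.30 and 0.27. The 2 of microglia were Ndn (256 CPM to 105 CPM) and H19, whose P4 UMIs lay almost all in 1 cell. Of the fetal timing genes, 1 of 2 measured in astrocytes and 2 of 3 in OPCs were lower, beside 2.38% and 1.8% of all genes. In microglia 0 of 4 and in excitatory neurons 0 of 1 were past 2-fold, beside 4.75% and 6.01% of all genes higher and 9.28% and 3.64% lower. Of the glucocorticoid response genes, 3 of 6 in astrocytes and 2 of 3 in excitatory neurons were higher, beside 4.81% and 6.01% of all genes. In OPCs 1 of 5 was higher, not at own level, and in microglia 1 of 6, beside 2.23% and 4.75% of all genes. In inhibitory neurons 0 of 2 were higher, beside 4.98%. These lists had few measured members.

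**Figure D5:**
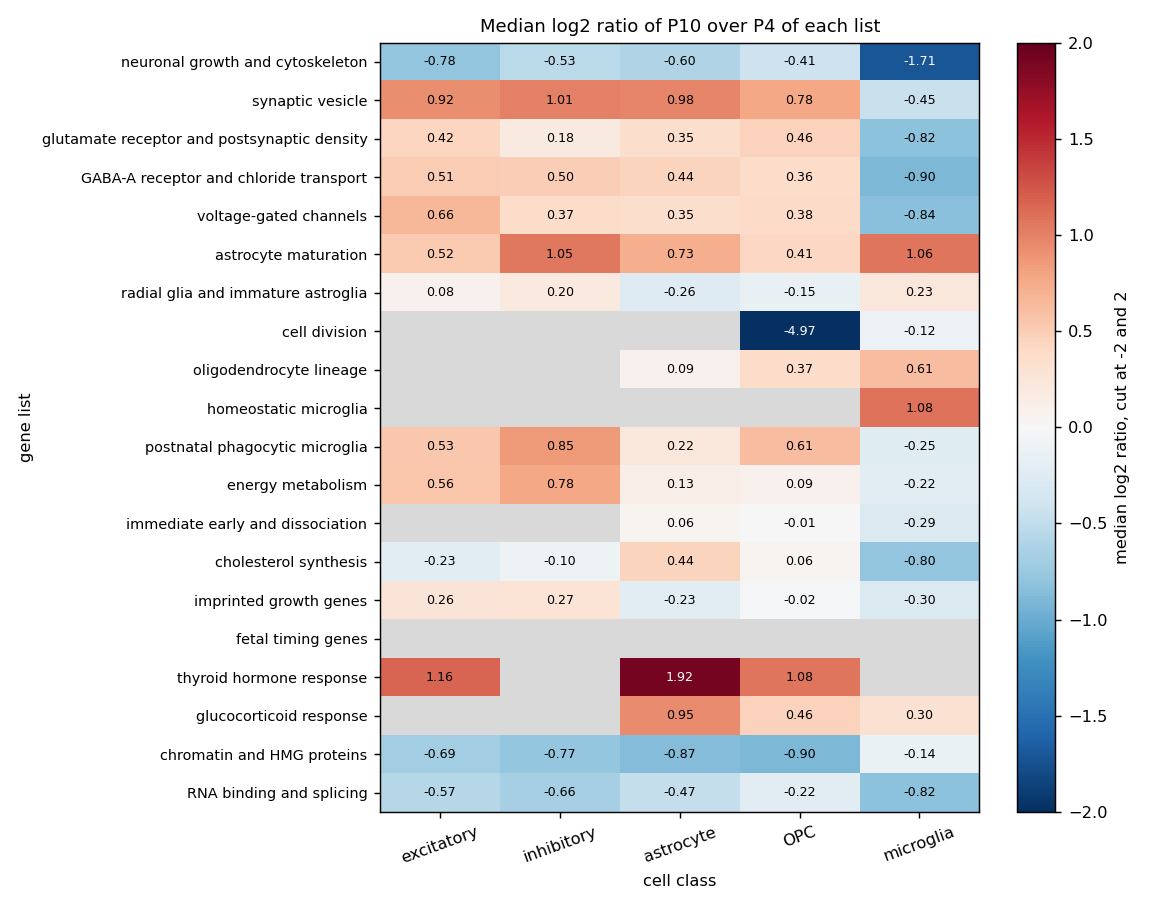
Median log2 ratio of P10 over P4 (color and number) of each gene list (rows) in each class (columns), grey where fewer than 5 genes passed the minimum of 50 CPM. Chromatin and HMG proteins lie between -0.69 and -0.90 in neurons, astrocytes and OPCs, and the synaptic vesicle list, at 0.98 in astrocytes, stood there at -0.39 with free RNA subtracted.

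A few genes were past 2-fold in opposite directions in different classes at own level, 13 in all. Egr1 was higher at P10 in excitatory neurons and lower in OPCs, where it went from 543 CPM (520 to 567) to 203 CPM (190 to 217). Tmem132b went from 38.7 CPM to 99.1 CPM in excitatory neurons and from 249 CPM to 78.1 CPM in astrocytes. Npy, neuropeptide Y, went from 274 CPM to 902 CPM in inhibitory neurons and from 210 CPM to 62.4 CPM in excitatory neurons, and Nos1, neuronal nitric oxide synthase, from 22.2 CPM to 81.7 CPM and from 72.3 CPM to 33.4 CPM. Npy was among the markers that named Lamp5-like inhibitory clusters, so its inhibitory level is in part a description. Which class the P4 cells with Npy and Nos1 belong to is uncertain, and under joint clustering the inhibitory log2 ratios of Npy and Nos1 were 0.46 and 0.05. Kctd12 was higher in microglia (1020 CPM to 2190 CPM, past 2-fold under 5 of 10 alternatives) and lower in excitatory neurons (266 CPM to 113 CPM). Pou3f1 went from 88.9 CPM to 192 CPM in OPCs and from 80.9 CPM to 20.9 CPM in microglia. Aplp1 went from 216 CPM to 498 CPM in astrocytes and from 618 CPM to 250 CPM in microglia, with both directions reversed under joint clustering. Csf1, the ligand of the microglial receptor Csf1r, went from 49.9 CPM to 111 CPM in astrocytes, and in microglia 57 of its 100 UMIs at P4 were in 1 cell.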

How the data were processed

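Cells of the prefrontal cortex of female C57BL/6J mice were profiled by BD Rhapsody whole transcriptome analysis and sequenced on NovaSeq 6000, with 1 library at P4 and 1 at P10. The files deposited by the authors hold raw UMI counts from the BD Rhapsody pipeline, one value for each gene in each cell, mapped to GRCm38 (mm10 per the labels), with no normalization. The file headers name the same pipeline version for both ages. The P4 and P10 files held 273834131 and 287594712 UMIs.

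Cells that passed the filter were clustered within each library (scanpy 1.11.5, leidenalg 0.10.2, 2000 variable genes, 30 components, 20 neighbours, Leiden resolutions 0.5 and 1.0). A cell entered a class if both resolutions named it alike from markers. The thresholds of this naming, and the use of both resolutions, were set after scores had been seen. Scrublet, run through scanpy with an assumed doublet rate of 0.06, marked cells that were kept, and leaving them out was an alternative. UMIs were summed by class and library, and genes with a mean of at least 50 CPM over both ages were compared, past 2-fold being counted. Intervals are exact Poisson (levels), binomial (ratios) and Clopper-Pearson (shares) intervals at 95%. The procedure was run on simulated sums with known changes and counting error alone, as the intervals assume. Such sums hold no spread between cells, mice or libraries, so the run does not test for it. The members and lists were chosen with earlier results of these data known.

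Genes were named by a rule: per class, the 5 largest and 5 lowest ratios among genes with a mean of at least 100 CPM at own level, without naming markers, mitochondrial and ribosomal protein genes and models named by number; genes shared by all classes; the 3 largest changed in 1 class; up to 8 of opposite direction; and list members by size. Genes named outside it were chosen after their values were seen: those shared by 4 classes or by neurons, Thra, Grin2b, Slc12a2, Scn3a, Scn8a, Ndn, Gap43, Slc1a3, Sox9, Ptn, Cd68, Ctsd, Lgals3, Itgax, Ccl4, Lgals1, Gpnmb, Elovl5, Hacd2 and Tnr. Some genes that the rule gives are not reported here.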

Additional observations from a re-analysis of the deposited data

Results flagged for a closer look

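Of the 13 genes past 2-fold higher at P10 in 1 class and past 2-fold lower in another, the 8 given here were ranked first by the smaller of the 2 ratios. Of the others, Lpl had log2 ratios of 2.98 in inhibitory neurons and -1.09 in microglia. With 1 library per age none of these differences between classes was tested. Between excitatory neurons and OPCs the log2 ratios of Egr1 differed by 4.60. Between inhibitory and excitatory neurons those of Npy differed by 3.47 and those of Nos1 by 3.00. The log2 ratio of Npy was 2.31 in Sst-like, 3.22 in Lamp5-like, 0.29 in Pvalb lineage-like and -0.16 in Vip-like clusters. Npy was among the markers of Lamp5-like clusters, and such markers also helped to place clusters among inhibitory neurons. Its ratios by cluster therefore describe the naming in part and test nothing. The class of P4 cells with Npy and Nos1 is uncertain, and under joint clustering the inhibitory ratios were 0.46 for Npy and 0.05 for Nos1. Between excitatory neurons and astrocytes the ratios of Tmem132b differed by 3.03, and in L6 CT-like clusters alone its excitatory ratio was 0.46 in place of 1.36. Between microglia and excitatory neurons those of Kctd12 differed by 2.33. In the other 3 genes the lower class was microglia. The ratios of Pou3f1 in OPCs and microglia differed by 3.06, those of Aplp1 in astrocytes and microglia by 2.51 and those of Csf1 in astrocytes and microglia by 2.33. With cells chosen by marker UMIs the microglial ratios were -0.39 for Pou3f1, 0.60 for Aplp1 and -2.32 for Csf1, with free RNA subtracted they were -2.62, -2.70 and -1.40, and 57 of the 100 UMIs of Csf1 in P4 microglia were in 1 cell.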

How the results depend on the processing

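No paired analysis was possible because each age has 1 library, and for the same reason no library could be left out. The counts of genes per class, in all 5 classes and in 1 class alone were within 1.5 times of the reported ones under the stricter cell filter, the denominator of all genes and centring on the median. With L6 CT-like or Sst-like clusters alone the counts per class were, but 9 genes changed in inhibitory neurons alone with Sst-like clusters. The other alternatives moved some counts, and where no construction shows it, the cause was not tested. Genes are given as higher/lower at P10. Without cells marked by Scrublet, microglia had 77/189 genes, all 5 classes shared 8/1, and 41 genes changed in microglia alone. With resolution 1.0 alone, 34 genes were lower in OPCs, 0 lower in all 5 classes and 2 changed in OPCs alone. With resolution 0.5 alone, chosen after seeing the data, astrocytes had 323/380, 11 were lower in all 5, and 13, 4 and 71 changed in inhibitory neurons, OPCs and microglia alone. Joint clustering gave 336/403 in astrocytes, 23 lower in OPCs, 85 lower in microglia and 1 lower in all 5, and 12, 198, 2 and 3 genes changed in inhibitory neurons, astrocytes, OPCs and microglia alone. With cells chosen by marker UMIs, microglia had 103/101, all 5 shared 8/0, and 32 and 16 changed in excitatory neurons and microglia alone. With the mean of each cell's CPM, microglia had 102/216, all 5 shared 9/1, and 36 and 62 changed in inhibitory neurons and microglia alone. With free RNA subtracted, 0 were higher in all 5 and 11 changed in OPCs alone. Without Mki67 or Top2a cells, 36 were lower in OPCs.

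A minimum of 20 CPM gave 407/322 in excitatory neurons, 332/318 in inhibitory neurons, 353/198 in astrocytes, 205/232 in OPCs, 432/792 in microglia and 11/6 in all 5, and 38, 14 and 410 genes in excitatory neurons, OPCs and microglia alone. A minimum of 100 CPM gave 160/79, 128/83, 105/55, 45/46 and 126/207 in the same order, 1 higher in all 5, and 10, 7, 12, 3 and 105 in 1 class alone.

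Of gene ratios past 2-fold and list medians of 0.5 or more in size, 16 changed direction. Under joint clustering Aplp1 went to -0.31 in astrocytes and 0.43 in microglia, and list medians to -0.48 (synaptic vesicle, astrocytes), 0.51 (glutamate receptors, microglia), 0.67 (GABA-A receptors, microglia) and 0.56 (voltage-gated channels, microglia). With cells chosen by marker UMIs, Dnm3 went to 0.17 and Aplp1 to 0.60 in microglia, and medians of microglia to 1.14 (glutamate receptors), 0.74 (voltage-gated channels), -0.023 (oligodendrocyte lineage), 0.16 (cholesterol synthesis) and 0.002 (RNA binding). The synaptic vesicle median of astrocytes went to -0.39 with free RNA subtracted and -0.47 with resolution 0.5 alone, where Aplp1 in astrocytes went to -0.32. Depth limits microglia most: at P4, 50 CPM of them were 41.4 UMIs.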
